A study of Mus musculus with 6 samples.

Results

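Cell cycle and DNA replication genes were examined in the liver of mice that lack miR-137. The set was a named list of 50 genes, and each gene was read from its brightest single-symbol probe set, on the mean of all 6 arrays, a choice that does not use the genotype. Of the 50 genes, 49 were measured, among 18193 genes tested, and Ccnb1 was not analysed here. They were divided by the phase in which they act into 11 genes of G1 control, 17 genes of S phase and 21 measured genes of mitosis.

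Tissue came from Mir137-/- mice (3 livers), which carry a whole-body deletion of the exons that encode miR-137, and from wild-type Mir137+/+ mice (3 livers). All mice were untreated and were taken at postnatal day 14, with 1 mouse per array and 1 whole-genome Affymetrix array per liver. The deletion is in the germline, so every organ of a Mir137-/- mouse lacks miR-137 and a hepatic difference is not specific to a deletion in liver cells. Values are log2 expression of a probe set, and differences are Mir137-/- minus Mir137+/+ on that scale. A gene was called when limma gave a Benjamini-Hochberg adjusted p below 0.05 over all genes tested and the change exceeded 1.5-fold.

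A cell enters the cycle when D-type cyclins with Cdk4, and then E-type cyclins with Cdk2, inactivate the retinoblastoma protein and release E2F factors, while the inhibitors p21 and p27 hold the kinases back. In S phase the Mcm2 to Mcm7 helicase, loaded on origins by Cdc6 and Cdt1, opens the DNA, and in G2 and mitosis Cdk1, the Aurora and Polo kinases, kinesins and the spindle checkpoint drive chromosome segregation. In the growing liver of a young mouse, dividing cells include hepatocytes and remaining precursors of blood cells, and a liver homogenate pools all of them.

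The S phase and mitosis genes are known to be driven through different promoter elements, and their promoters are shown here because the comparison turns on these groups. RefSeq windows on GRCm38.p6, from 250 bases before to 50 bases after a transcription start, were given for 40 of the 49 measured genes, with 46 windows. Those without a window were Ccna2, Ccnd1, Ccnd2, Ccne2, Foxm1, Gmnn, Aurkb, Kif20a and Mcm4. E2F sites were searched as TTTCCCGC, TTTGGCGC, TTTCGCGC and TTTGCCGC, the cell cycle homology region (CHR) as TTTGAA and TTCGAA, and the CCAAT box as CCAAT, all on both strands. An E2F match was in 7 of 18 S phase windows (38.9%) and 1 of 18 mitosis windows (5.56%), against 2.26% of all 32851 windows. A CHR match was in 15 of 18 mitosis windows (83.3%) and 2 of 18 S phase windows (11.1%), against 19.2% of all windows. CCAAT was in 16 of 18 mitosis windows (88.9%) and 10 of 18 S phase windows (55.6%), against 37.4% of all windows. The same 15 mitosis windows held both CHR and CCAAT (83.3%), against 7.52% of all windows. These matches describe letters in a window, and binding was not measured.

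The stretches below run 5′ to 3′ on the gene's strand from position -120 to position 50, where the start is position 1, and capitals mark any E2F, CHR or CCAAT match. Among S phase genes, Mcm6, Cdt1 and Lig1 were those with higher values on every Mir137-/- array and Mcm10 the one with lower values on every Mir137-/- array, and Mcm3 shows E2F and CCAAT together. In Mcm6 the upstream capitals are E2F matches on both strands that overlap. Lig1 is shown by the window, of its 3, that holds an E2F match.
Mcm6 (chr1:128359656-128359825, minus strand): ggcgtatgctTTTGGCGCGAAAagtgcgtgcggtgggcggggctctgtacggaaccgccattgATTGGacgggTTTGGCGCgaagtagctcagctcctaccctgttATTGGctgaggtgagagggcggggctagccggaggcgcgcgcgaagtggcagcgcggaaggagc
Cdt1 (chr8:122567895-122568064, plus strand): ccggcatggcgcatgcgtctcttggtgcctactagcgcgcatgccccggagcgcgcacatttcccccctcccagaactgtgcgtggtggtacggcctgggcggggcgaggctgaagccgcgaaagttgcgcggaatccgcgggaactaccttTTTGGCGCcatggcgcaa
Lig1 (chr7:13278706-13278875, plus strand): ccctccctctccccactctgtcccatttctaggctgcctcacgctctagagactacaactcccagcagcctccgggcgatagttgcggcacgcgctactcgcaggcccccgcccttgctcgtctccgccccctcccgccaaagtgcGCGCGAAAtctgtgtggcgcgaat
Mcm3 (chr1:20820263-20820432, minus strand): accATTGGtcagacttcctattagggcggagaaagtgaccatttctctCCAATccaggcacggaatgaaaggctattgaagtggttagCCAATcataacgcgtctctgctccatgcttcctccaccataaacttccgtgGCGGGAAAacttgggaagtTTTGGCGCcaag
Mcm10 (chr2:5012742-5012911, minus strand): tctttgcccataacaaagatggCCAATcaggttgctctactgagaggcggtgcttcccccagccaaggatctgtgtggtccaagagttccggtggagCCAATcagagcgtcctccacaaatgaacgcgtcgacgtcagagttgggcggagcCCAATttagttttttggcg

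Among mitosis genes, Plk1, Cdc20 and Ccnb2 show the layout of CCAAT boxes upstream of or beside a CHR near the start. Cenpe, the mitosis gene with the lowest difference, held CCAAT and no CHR match in its window, and the windows of Birc5 and Nusap1 held no match to any of the motifs.
Plk1 (chr7:122159315-122159484, plus strand): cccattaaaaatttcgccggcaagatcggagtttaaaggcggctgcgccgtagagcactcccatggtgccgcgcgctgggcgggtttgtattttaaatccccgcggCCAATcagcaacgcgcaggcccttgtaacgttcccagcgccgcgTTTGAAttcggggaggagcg
Cdc20 (chr4:118437294-118437463, minus strand): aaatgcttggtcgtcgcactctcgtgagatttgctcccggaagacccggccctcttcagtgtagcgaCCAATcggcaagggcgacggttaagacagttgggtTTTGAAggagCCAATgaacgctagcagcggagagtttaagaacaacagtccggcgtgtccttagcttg
Ccnb2 (chr9:70421505-70421674, minus strand): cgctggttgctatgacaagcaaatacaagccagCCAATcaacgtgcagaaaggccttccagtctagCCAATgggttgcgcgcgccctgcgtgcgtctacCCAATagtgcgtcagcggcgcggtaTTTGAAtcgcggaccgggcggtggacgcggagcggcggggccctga
Cenpe (chr3:135212443-135212612, plus strand): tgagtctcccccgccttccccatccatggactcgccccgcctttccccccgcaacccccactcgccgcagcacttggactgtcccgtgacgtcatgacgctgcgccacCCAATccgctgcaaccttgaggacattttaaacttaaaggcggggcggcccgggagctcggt

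**Figure D1:**
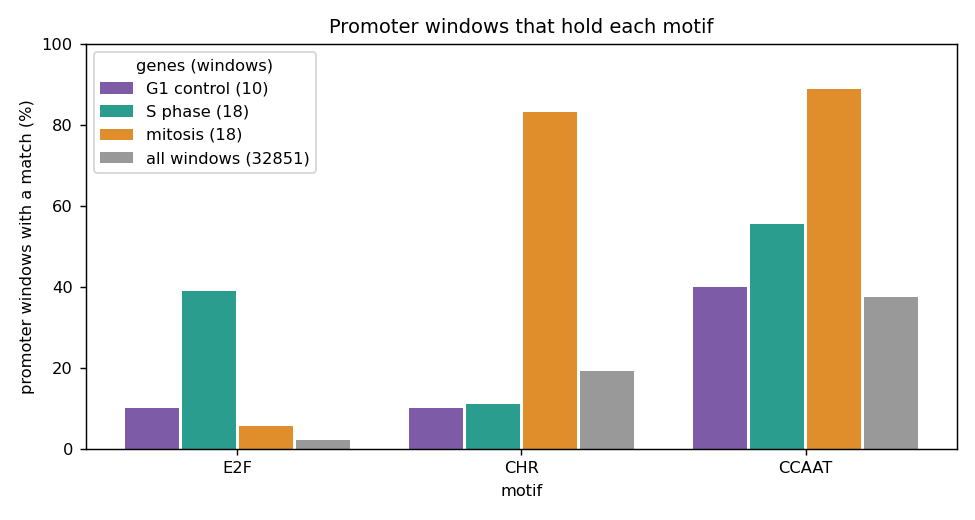
Share of promoter windows (%, vertical axis) that hold each motif (horizontal axis), for windows of G1 control, S phase and mitosis genes and for all windows. CHR stands in 83.3% of mitosis windows against 19.2% of all windows, and E2F in 38.9% of S phase windows against 2.26% of all windows.

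Across the 49 genes, few differed between the genotypes. Of them, 0 were called higher in Mir137-/- liver and 1, the E-type cyclin Ccne2, was called lower (2.04% of the members), beside 2.34% of all genes called higher and 3.34% called lower. At an adjusted p below 0.05 with any fold, 3 members were higher (6.12%, Ccnd2, Ccnd3 and Lig1) and 2 were lower (4.08%, Ccne2 and Mcm10), beside 5.06% and 6.9% of all genes. At an unadjusted p below 0.05, 5 were higher (10.2%) and 6 were lower (12.2%), beside 12.2% of all genes higher and 14.6% lower. The 3 arrays of 1 genotype lay wholly above the 3 of the other in Mir137-/- for 5 members (10.2%) and wholly below for 4 (8.16%), against 14.9% and 17.4% of all genes. Of these shares, only that of higher values at any fold was above its background, at 6.12% against 5.06%. Differences ran from -1.03 to 0.54 with 21 positive and 28 negative, and their median was -0.07, against 0.00 over all genes tested. The 95% interval of the difference lay inside 1.5-fold in both directions for 27 of the 49 members, so for the others these arrays did not settle whether a change of that size was present.

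**Figure D2:**
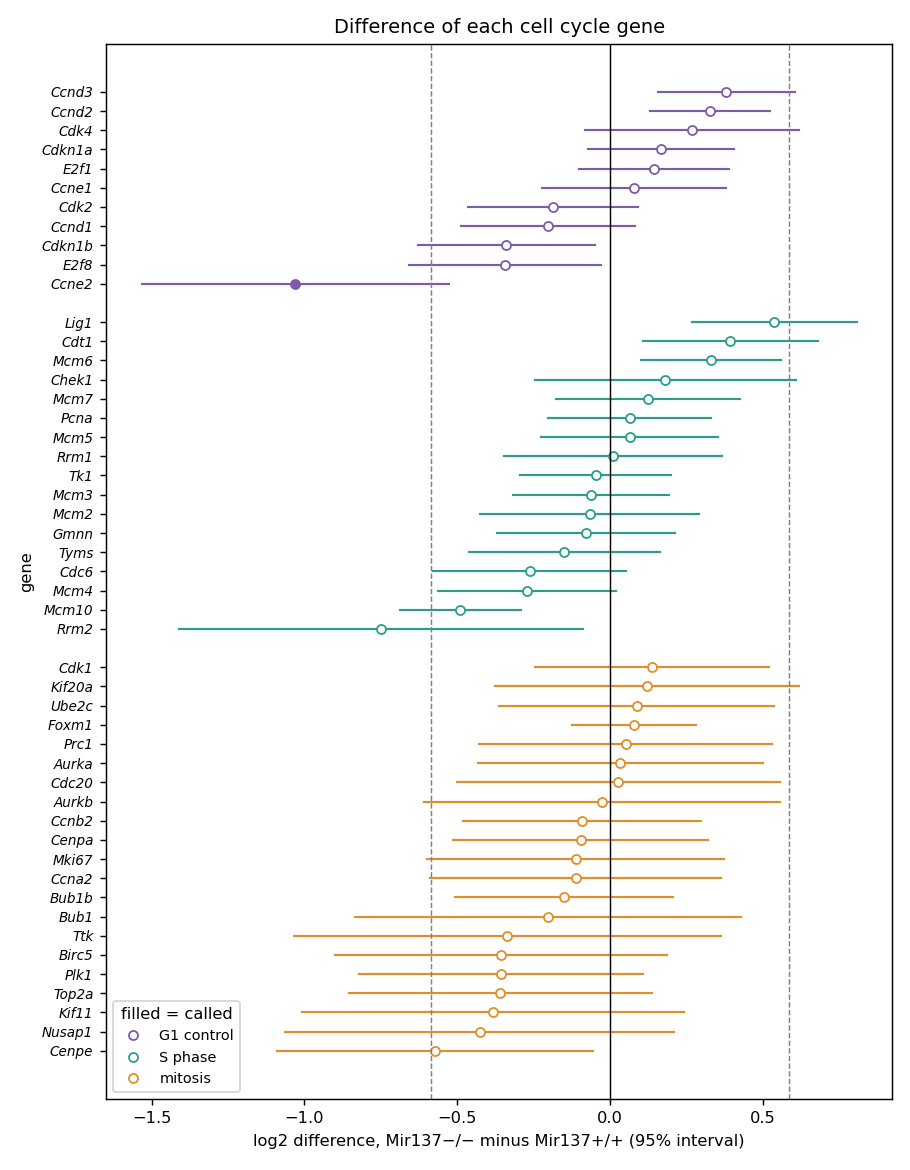
Log2 difference (horizontal axis, Mir137-/- minus Mir137+/+) with its 95% interval for each measured gene (vertical axis), grouped by phase, with dashed lines at 1.5-fold and a filled point for a called gene. The single filled point is Ccne2 at -1.03, and the 21 mitosis genes lie between -0.57 and 0.14.

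Some arrays carried other signals. Xist, the transcript of the inactive X chromosome, was at 3.66 to 4.24 on the 3 Mir137-/- arrays. On Mir137+/+ replicates 1, 2 and 3 it was at 3.94, 10.91 and 10.81, although the methods name male mice. The Y-linked gene Eif2s3y was at 8.46 to 8.62 on the Mir137-/- arrays. On Mir137+/+ replicates 1, 2 and 3 Eif2s3y was at 8.59, 2.06 and 2.51. Read from these genes, Mir137+/+ replicates 2 and 3 were female and the other arrays male. Sex is thus partly confounded with genotype in every main difference. On Mir137-/- replicate 1, the median of 18 muscle genes exceeded its Mir137+/+ mean by 2.86. A like median of 14 exocrine pancreas genes was 2.60 on Mir137-/- replicate 2 and 1.40 on Mir137+/+ replicate 2. Albumin, the defining hepatocyte product (Alb), stood at 13.71 to 13.74 on Mir137-/- arrays and at 13.73 to 13.79 on Mir137+/+ arrays. The highest value of any probe set was 13.79, so a difference in Alb may not show at this level. The summed level of 17 hepatocyte genes was 16.99 to 17.01 in Mir137-/- and 17.05 to 17.07 in Mir137+/+ (log2 of the sum), with 0 of the 17 called. Of these 17, 9 were lower and 2 higher on every Mir137-/- array, beside the 17.4% and 14.9% of all genes, and their median difference was -0.07.

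Of the 11 G1 control genes, the cyclins differed in direction. Ccne2, cyclin E2, a partner of Cdk2 at entry into S phase, was at 4.29, 4.97 and 5.17 on Mir137-/- replicates 1, 2 and 3, against 5.66, 5.85 and 6.01 on Mir137+/+ replicates 1, 2 and 3. All Mir137-/- arrays were below all Mir137+/+ arrays, with the lowest value on Mir137-/- replicate 1. The difference was -1.03 (SE 0.22, adjusted p = 0.0220), which is 0.490 of the Mir137+/+ level. Ccne2 was measured by 1 probe set, and its call was lost without Mir137+/+ replicate 2 (-1.03, adjusted p = 0.0734) and without Mir137+/+ replicate 3 (-0.95, adjusted p = 0.0815). It was also lost without both of these arrays, the ones with Xist (-0.85, adjusted p = 0.363), with a term for the sex that Xist gives (-0.85, adjusted p = 0.248), by the methods' t-test (adjusted p = 0.134) and without the 2 arrays with pancreas transcripts (-1.11, adjusted p = 0.128). The adjusted p of Ccne2 was between 0.00706 and 0.363 over the alternatives run. The direction held in each of these fits. In homogenised tissue, fewer cells of a type and less RNA per cell cannot be told apart.

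The other E-type cyclin, Ccne1, differed by 0.08 (adjusted p = 0.763), with overlapping groups. Ccnd3, cyclin D3, was at 8.77, 8.86 and 8.70 in Mir137-/-, against 8.27, 8.51 and 8.41 in Mir137+/+. Ccnd2, cyclin D2, was at 7.48, 7.34 and 7.42 in Mir137-/-, against 7.05, 7.16 and 7.05 in Mir137+/+. For both of these D-type cyclins every Mir137-/- array was above every Mir137+/+ array, by a small margin. The difference was 0.38 for Ccnd3 (SE 0.10, adjusted p = 0.0413) and 0.33 for Ccnd2 (SE 0.09, adjusted p = 0.0454), both under 1.5-fold. With each array left out in turn, the adjusted p ran from 0.0553 to 0.129 for Ccnd3 and from 0.0596 to 0.145 for Ccnd2, so neither passed with any array removed. Ccnd2 had 7 probe sets, and the next brightest gave 0.44 without overlap, whereas the dimmest gave -0.07 and the mean over all of them was 0.20 (adjusted p = 0.181). The other probe sets of Ccnd3 gave 0.05 and 0.10 with overlapping groups, and the mean over its 3 probe sets was 0.18 (adjusted p = 0.453). Ccnd1, cyclin D1, the D-type cyclin best known for growth factor induction in hepatocytes, was at 8.54, 8.24 and 8.33 in Mir137-/-, against 8.48, 8.78 and 8.46 in Mir137+/+. Its groups overlapped, with a difference of -0.20 (SE 0.12, adjusted p = 0.346).

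Among the kinases and their inhibitors, no gene passed the test. Cdkn1b, which encodes p27, was at 8.40, 8.46 and 8.83 in Mir137-/-, against 8.84, 8.96 and 8.91 in Mir137+/+. The groups did not overlap, but Mir137-/- replicate 3 lay just under the lowest Mir137+/+ array, and the difference of -0.34 (SE 0.12) had an adjusted p of 0.126. Cdkn1a, which encodes p21, was at 9.24, 9.46 and 9.30 in Mir137-/-, against 9.04, 9.29 and 9.17 in Mir137+/+, a difference of 0.17 (SE 0.10, adjusted p = 0.355) with groups that overlapped. The kinase genes Cdk4 (0.27, adjusted p = 0.312) and Cdk2 (-0.19, adjusted p = 0.376) had overlapping groups too. E2f1, an activating E2F, was at 0.14 (adjusted p = 0.442), and E2f8, a repressing E2F, was at -0.34 (adjusted p = 0.153) with groups that did not overlap.

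**Figure D3:**
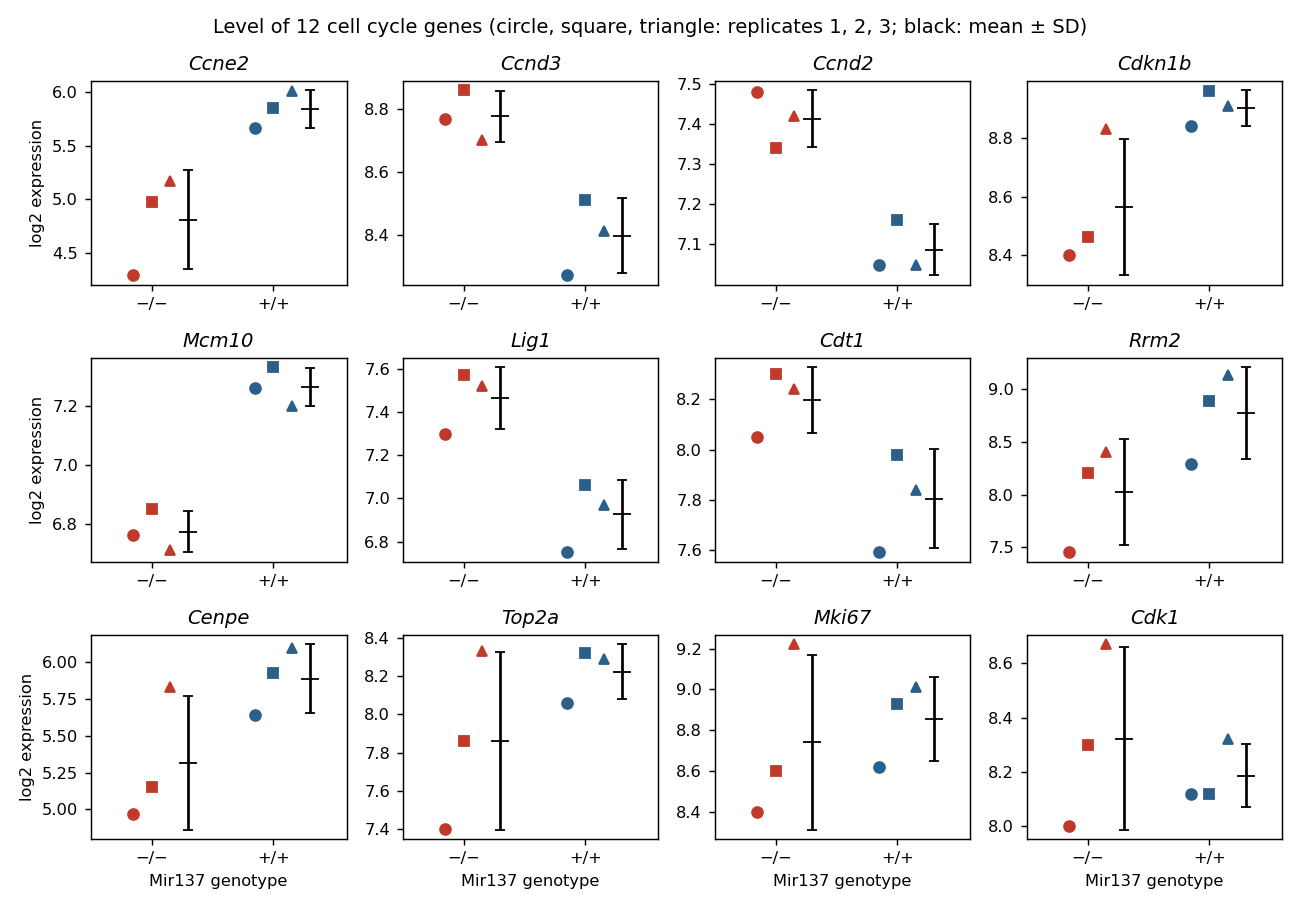
Log2 expression (vertical axes, which do not start at 0) of 12 genes on the 3 Mir137-/- arrays (left, red) and the 3 Mir137+/+ arrays (right, blue), with circles, squares and triangles for replicates 1, 2 and 3 and black marks for the mean and SD. Ccne2 is lower on all Mir137-/- arrays (4.29 to 5.17, against 5.66 to 6.01 in Mir137+/+), whereas for Mki67 the Mir137-/- arrays (8.40 to 9.22) enclose the Mir137+/+ arrays (8.62 to 9.01).

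The 17 S phase genes split in direction, with 8 positive and 9 negative and a median of -0.05. Of these, 0 were called, beside 2.34% of all genes called higher and 3.34% lower. The largest positive difference was that of Lig1, the DNA ligase that joins Okazaki fragments, at 7.30, 7.57 and 7.52 in Mir137-/-, against 6.75, 7.06 and 6.97 in Mir137+/+. Every Mir137-/- array was above every Mir137+/+ array, and the difference was 0.54 (SE 0.12, adjusted p = 0.0243), a ratio of 1.45. Lig1 was past 1.5-fold and called without Mir137-/- replicate 1 (0.62, adjusted p = 0.0271) or without Mir137+/+ replicate 2 (0.60, adjusted p = 0.0448). With any other single array left out, its adjusted p was above 0.05, from 0.0614 to 0.0777. It was 0.0053 with trend and robust eBayes and 0.0994 by the methods' t-test.

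The helicase and its loaders did not all differ in the same direction. Mcm10, which links the helicase to DNA polymerase and is no subunit of the ring, was at 6.76, 6.85 and 6.71 in Mir137-/-, against 7.26, 7.33 and 7.20 in Mir137+/+. The groups were apart, and the difference was -0.49 (SE 0.09, adjusted p = 0.0107), under 1.5-fold. A dimmer probe set of Mcm10 went the other way (0.26, groups without overlap), and the mean over its 3 probe sets gave -0.04 (adjusted p = 0.772 in that alternative, 0.00298 to 0.772 over all). Mcm6, a subunit of the ring, was at 9.02, 9.19 and 9.33 in Mir137-/-, against 8.83, 8.86 and 8.86 in Mir137+/+. Its groups did not overlap, with a difference of 0.33 (SE 0.10, adjusted p = 0.0716), and the next brightest probe set of Mcm6 gave -0.06. Cdt1, which loads the ring on origins, was at 8.05, 8.30 and 8.24 in Mir137-/-, against 7.59, 7.98 and 7.84 in Mir137+/+. It was higher on every Mir137-/- array, with a difference of 0.39 (SE 0.12, adjusted p = 0.0811), and its next probe set gave 0.40, also without overlap.

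The other ring subunits differed less. Mcm2 was at 7.66, 7.39 and 7.63 in Mir137-/-, against 7.30, 7.86 and 7.72 in Mir137+/+, so that the Mir137-/- arrays lay within the range of Mir137+/+. Its difference was -0.07 (SE 0.15, adjusted p = 0.833), and those of Mcm3 (-0.06), Mcm4 (-0.27), Mcm5 (0.06) and Mcm7 (0.12) also came with overlapping groups. Pcna, the sliding clamp of the polymerases, was at 9.91, 10.17 and 10.27 in Mir137-/-, against 9.94, 10.10 and 10.12 in Mir137+/+. The Mir137-/- arrays spanned those of Mir137+/+, with a difference of 0.06 (SE 0.12, adjusted p = 0.780). The loader Cdc6 (-0.26), the geminin gene Gmnn (-0.08) and the checkpoint kinase Chek1 (0.18) had overlapping groups as well. Cdc6 was dim, at a mean of 3.82, under the array medians, so a change in it may not show.

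Enzymes that supply deoxynucleotides gave the lowest difference of the S phase group. Rrm2, the cell cycle regulated subunit of ribonucleotide reductase, was at 7.45, 8.21 and 8.41 in Mir137-/-, against 8.29, 8.89 and 9.14 in Mir137+/+, values given here because of their size. Replicate 1 was the lowest of each genotype, and Mir137-/- replicate 3 lay above Mir137+/+ replicate 1. The difference was -0.75 (SE 0.29, adjusted p = 0.140), and the other probe sets of Rrm2 gave -0.70 and -0.51. Rrm1, the large subunit (0.01), the thymidylate synthase gene Tyms (-0.15) and the thymidine kinase gene Tk1 (-0.05) had overlapping groups. Tyms was dim, at a mean of 3.29, under the array medians, so a change in it may not show.

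**Figure D4:**
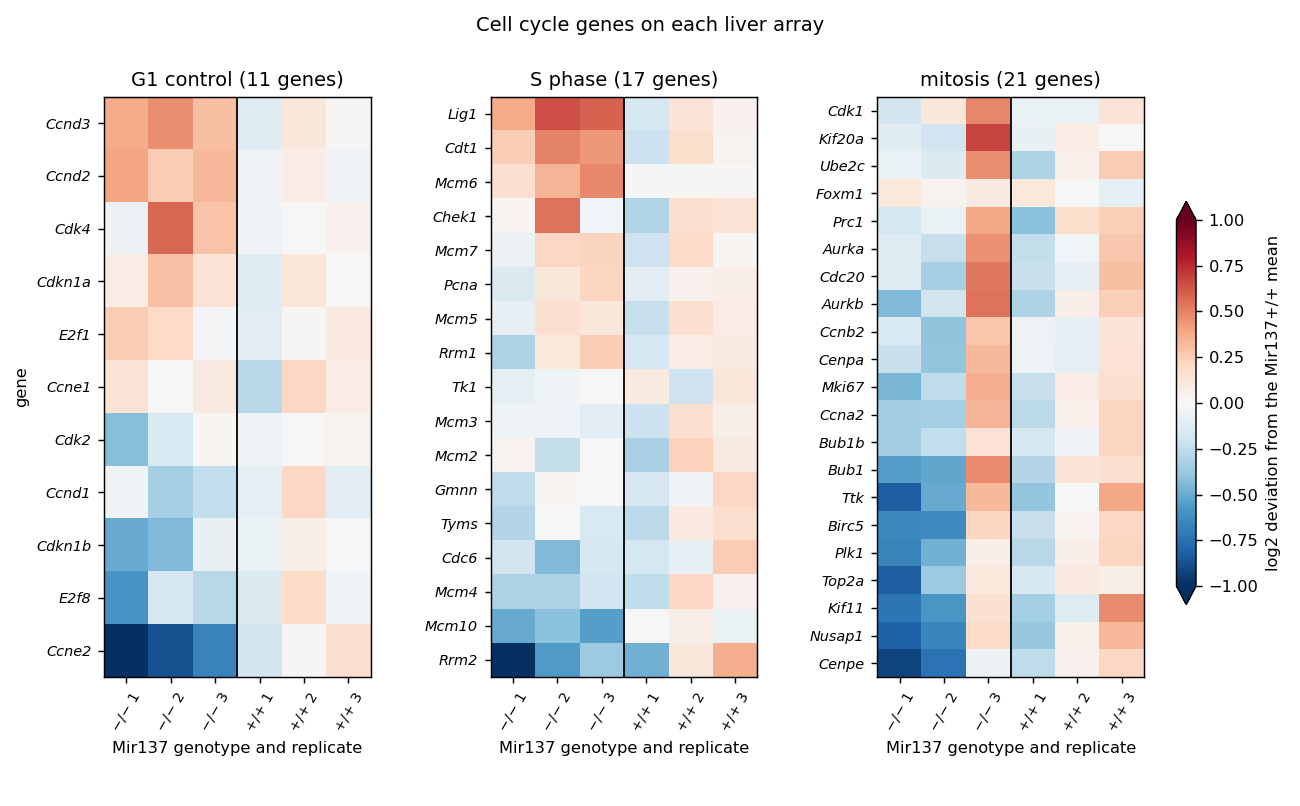
Log2 deviation of each gene (rows, sorted by difference within each phase) from its Mir137+/+ mean on the 3 Mir137-/- arrays (left of the line) and the 3 Mir137+/+ arrays (right of the line), with colours that saturate at 1 in either direction. In the mitosis panel Mir137-/- replicate 3 stands above replicates 1 and 2 (median deviation 0.33, against -0.35 and -0.34).

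The 21 mitosis genes gave 0 calls, beside 2.34% of all genes called higher and 3.34% lower. In all 21 the genotypes overlapped, beside 14.9% of all genes higher and 17.4% lower on every Mir137-/- array. The lowest difference was that of Cenpe, a kinetochore kinesin, at 4.97, 5.15 and 5.83 in Mir137-/-, against 5.64, 5.93 and 6.10 in Mir137+/+. Mir137-/- replicates 1 and 2 were below all Mir137+/+ arrays and replicate 3 was not, with a difference of -0.57 (SE 0.22, adjusted p = 0.148). The other probe set of Cenpe gave -0.75, with overlapping groups. Plk1, the Polo-like kinase, was at 6.27, 6.45 and 6.99 in Mir137-/-, against 6.65, 6.99 and 7.14 in Mir137+/+ (-0.36, SE 0.20, adjusted p = 0.308). Nusap1, a protein of spindle microtubules, was at 6.70, 6.86 and 7.69 in Mir137-/-, against 7.13, 7.56 and 7.84 in Mir137+/+ (-0.43, SE 0.27, adjusted p = 0.377). In Plk1 and Nusap1, as in Cenpe, replicate 3 of Mir137-/- reached into the Mir137+/+ range.

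In the general proliferation markers, too, replicate 3 was the highest Mir137-/- array. Mki67, the gene of the Ki-67 antigen, was at 8.40, 8.60 and 9.22 in Mir137-/-, against 8.62, 8.93 and 9.01 in Mir137+/+. Mir137-/- held both the lowest and the highest array, and the difference was -0.11 (SE 0.21, adjusted p = 0.785), with a 95% interval from -0.60 to 0.37. Top2a, the topoisomerase that untangles sister chromatids, was at 7.40, 7.86 and 8.33 in Mir137-/-, against 8.06, 8.32 and 8.29 in Mir137+/+. Its highest array was again Mir137-/- replicate 3, with a difference of -0.36 (SE 0.21, adjusted p = 0.336). Cdk1, the mitotic kinase, was at 8.0, 8.30 and 8.67 in Mir137-/-, against 8.12, 8.12 and 8.32 in Mir137+/+, a difference of 0.14 (SE 0.16, adjusted p = 0.658) with the lowest and the highest value both in Mir137-/-.

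In their brightest probe sets, the other mitosis genes lay between -0.38 and 0.12. The lower end held the kinesin Kif11 (-0.38), the survivin gene Birc5 (-0.36), the checkpoint kinase Ttk (-0.34), the checkpoint genes Bub1 (-0.20) and Bub1b (-0.15), the cyclins Ccna2 (-0.11) and Ccnb2 (-0.09), and the centromeric histone Cenpa (-0.10). The upper end held the kinesin Kif20a (0.12), the ubiquitin-conjugating enzyme Ube2c (0.09), the transcription factor Foxm1 (0.08), and Prc1, which bundles microtubules of the central spindle (0.05). The Aurora kinases Aurka (0.03) and Aurkb (-0.03) and the activator of the anaphase-promoting complex Cdc20 (0.03) were close to 0. None of these 15 genes had an adjusted p under 0.05.

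The mitosis genes differed from the other groups in their spread within Mir137-/-. The median SD over the 3 Mir137-/- arrays was 0.43 for mitosis genes, against 0.15 for S phase genes, 0.15 for G1 control genes and 0.13 for all genes. Within Mir137+/+ it was 0.24, 0.20, 0.12 and 0.11 in the same groups. Mir137-/- replicate 3 was the highest Mir137-/- array for 20 of 21 mitosis genes, Foxm1 being the exception, and for 8 of 17 S phase genes and 3 of 11 G1 control genes, against 28% of all genes. It exceeded the mean of replicates 1 and 2 by a median of 0.70 over the mitosis genes, by 0.11 over the S phase genes and by 0.03 over the G1 control genes, and by over 0.5 in 19 of 21 mitosis genes. The largest gaps were those of Bub1 (1.01) and Ttk (0.99). The Mir137+/+ arrays had an order too, with replicate 3 highest for 18 of 21 mitosis genes (34.7% of all genes) and replicate 1 lowest for 17 of 21 (33.6% of all genes). The genes within a group were measured on the same arrays, so these counts describe arrays and are not independent.

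Set against each other, S phase and mitosis genes differed by array rather than by genotype. The median deviation of S phase genes from the Mir137+/+ mean was -0.09, 0.02 and 0.00 on the Mir137-/- arrays, against -0.21, 0.12 and 0.08 on the Mir137+/+ arrays. For mitosis genes it was -0.35, -0.34 and 0.33 on the Mir137-/- arrays, against -0.24, 0.04 and 0.21 on the Mir137+/+ arrays. S phase minus mitosis was thus 0.25, 0.36 and -0.33 in Mir137-/-, against 0.03, 0.08 and -0.14 in Mir137+/+. Replicates 1 and 2 of Mir137-/- were above and replicate 3 below all Mir137+/+ arrays, so the genotypes did not separate. The median difference between genotypes was -0.05 for S phase genes and -0.11 for mitosis genes, and the gap of 0.07 between them was smaller than the spread over arrays (SD 0.27). With 1 array left out the gap ran from -0.035 (Mir137-/- replicate 2 removed) to 0.24 (Mir137-/- replicate 3 removed), and it was -0.015 without the 2 arrays with pancreas transcripts, so its sign was not settled. Without Mir137-/- replicate 3 the mitosis median was -0.31, and Cenpe (-0.83, adjusted p = 0.0208) and Birc5 (-0.64, adjusted p = 0.0336) were called lower beside Ccne2. Over the alternatives run, the adjusted p was between 0.0208 and 0.742 for Cenpe and between 0.0336 and 0.919 for Birc5. Without Mir137-/- replicate 2 the mitosis median was 0.00, and without Mir137+/+ replicate 1 it was -0.23. Without Mir137-/- replicate 1 or without Mir137+/+ replicate 3 it was -0.03, and without the 2 arrays with Xist it was 0.05.

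**Figure D5:**
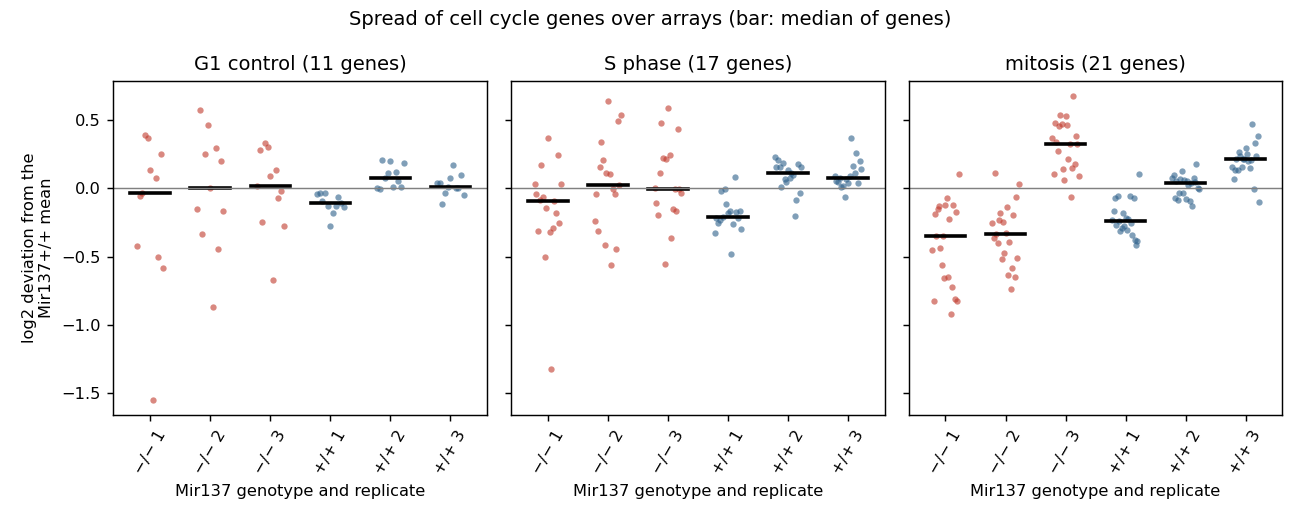
Log2 deviation from the Mir137+/+ mean (vertical axis) of each G1 control, S phase and mitosis gene (points) on the 3 Mir137-/- and the 3 Mir137+/+ arrays (horizontal axis), with a bar at the median of the genes. For mitosis genes the bars stand at -0.35, -0.34 and 0.33 in Mir137-/- and at -0.24, 0.04 and 0.21 in Mir137+/+.

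Further genes of the same phases followed similar arrays. Of 60 other mitosis genes, 0 were called higher and 3 lower, beside the 2.34% and 3.34% of all genes, 10 differences were positive and 50 negative, and the median was -0.23. Mir137-/- replicate 3 was the highest Mir137-/- array for 56 of the 60, and their median deviation was -0.49, -0.36 and 0.16 in Mir137-/-, against -0.21, 0.07 and 0.15 in Mir137+/+. The called genes were the centromere gene Cenpm (-0.72, adjusted p = 0.00409), the phosphatase gene Cdc25b (-0.66, adjusted p = 0.0140) and Ccnf, cyclin F (-0.59, adjusted p = 0.0419). Without the 2 arrays with Xist all of these calls were lost (Cenpm -0.80, adjusted p = 0.113, Cdc25b -0.50, adjusted p = 0.253, Ccnf -0.27, adjusted p = 0.538), and likewise without the 2 arrays with pancreas transcripts (adjusted p = 0.0535, 0.0695 and 0.259). Those of Cdc25b and Ccnf were also lost with sex as a term (adjusted p = 0.206 and 0.435) and by the methods' t-test (0.0815 and 0.16), that of Cdc25b without Mir137+/+ replicate 3 (-0.55), and that of Ccnf with quantile normalization (-0.56), with a replicate block (adjusted p = 0.0647) and with any single array left out except Mir137+/+ replicate 1 (adjusted p from 0.0726 to 0.135).

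Of 43 other replication and S phase genes, 2 were called higher and 1 lower, beside the same background, and the median was -0.07. Rfc3, a subunit of the clamp loader that places PCNA on DNA, was at 6.69, 6.77 and 6.82 in Mir137-/-, against 5.82, 5.88 and 5.89 in Mir137+/+, and rose by 0.90 (SE 0.08, adjusted p = 0.000938). Its groups lay far apart relative to their spread, unlike those of Pcna itself, and its call was lost without the 2 arrays with Xist (0.94, adjusted p = 0.0657). Pole2, a subunit of DNA polymerase epsilon, rose by 0.69 (adjusted p = 0.0101), and the origin recognition gene Orc4 fell by 0.61 (adjusted p = 0.00643). The call of Pole2 was lost without Mir137+/+ replicate 1 (0.58), over the mean of its probe sets (0.53), by the methods' t-test (adjusted p = 0.0693), without the 2 arrays with Xist (0.0761) and without the 2 arrays with pancreas transcripts (0.0747). That of Orc4 was lost over the mean of its probe sets (-0.29, adjusted p = 0.0842), with sex as a term (adjusted p = 0.0924), without the 2 arrays with Xist (0.176), and, being under 1.5-fold, with quantile normalization (-0.58), without Mir137-/- replicate 1 (-0.56) and without Mir137+/+ replicate 3 (-0.57).

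Of 40 other cell cycle regulators, E2f2, an activating E2F, was called lower (-0.91, adjusted p = 0.00808) and Mybl2, the B-Myb partner of the complex that binds CHR elements, was called higher (0.79, adjusted p = 0.00919) from levels under the array medians (4.24 in Mir137-/- and 3.45 in Mir137+/+). The calls of E2f2 and Mybl2 were lost by the methods' t-test (adjusted p = 0.0753 and 0.0744), with sex as a term (-0.66, adjusted p = 0.132, and 0.67, adjusted p = 0.144), without the 2 arrays with Xist (adjusted p = 0.238 and 0.2) and without the 2 arrays with pancreas transcripts (adjusted p = 0.0806 and 0.0804). The background was 2.34% of all genes called higher and 3.34% called lower, and the median of these regulators was -0.08. Of 17 p53 target genes, the growth arrest gene Gadd45a was called higher (0.68, adjusted p = 0.00425) and 0 were called lower, beside the same background. Their median was -0.13. The call of Gadd45a was lost with sex as a term (0.67, adjusted p = 0.0742) and without the 2 arrays with Xist (adjusted p = 0.127).

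Genes of some blood precursor lists also differed between the genotypes, and are given here because dividing precursors express the same cycle genes. Whether the values of these lists came from dividing precursors or from mature cells was not tested. Of 14 B cell precursor genes, 0 were called higher and 10 lower. Over all genes, 2.34% were called higher and 3.34% lower, which is the background for each list here. The summed level of the B cell precursor genes was 8.575 to 8.812 in Mir137-/-, against 9.651 to 9.878 in Mir137+/+ (log2 of the sum). Igll1, the surrogate light chain, was at -1.32 (adjusted p = 0.0011), and Cd79b, of the B cell receptor, at -0.65 (adjusted p = 0.00589). Without _s_at and _x_at probe sets Igll1 was at 0.03 (adjusted p = 0.936). Of 14 neutrophil precursor genes, 0 were called higher and 9 lower, with a summed level of 9.995 to 10.65 in Mir137-/-, against 11.75 to 12.1 in Mir137+/+, S100a8 (-1.57, adjusted p = 0.00211) and S100a9 (-1.71, adjusted p = 0.00259) being among the genes called lower. Of 16 erythroid precursor genes, 5 were positive and 11 negative. The brightest, Tfrc (-0.10) and Alas2 (0.04), had overlapping groups, and Hemgn was called lower (-0.75, adjusted p = 0.0219). Of 11 blood progenitor genes, 2 were positive and 9 negative. The brightest, Hhex (-0.07) and Kit (-0.24), had overlapping groups. The transcription factor genes Myb (-3.11, adjusted p = 0.000211) and Ikzf1 (-0.81, adjusted p = 0.0021) were called lower. The summed levels of both lists overlapped between the genotypes. In the progenitor list this sum is weighted to Hhex, at a mean of 9.33, against 6.86 for Kit. Alternatives for Hemgn, Myb and Ikzf1 are not given here. Without the 2 arrays with Xist, which leaves 1 Mir137+/+ array, the calls of Igll1 (-1.30), Cd79b (-0.69), S100a8 (-1.25) and S100a9 (-1.52) were lost. With sex as a term those of Cd79b and S100a9 were lost. By the methods' t-test those of S100a8 (adjusted p = 0.0515) and S100a9 (adjusted p = 0.057) were lost.

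By array, the median deviation of the B cell precursor genes was -0.62, -0.80 and -0.97 on Mir137-/- replicates 1, 2 and 3, against -0.11, -0.01 and 0.11 on Mir137+/+ replicates 1, 2 and 3. For neutrophil precursor genes it was -1.64, -1.12 and -1.51 in Mir137-/-, against -0.22, 0.12 and 0.16 in Mir137+/+. For blood progenitor genes it was -0.24, -0.26 and -0.13 in Mir137-/-, against -0.08, 0.00 and 0.04 in Mir137+/+. On the Mir137+/+ arrays, replicate 1 was the lowest and replicate 3 the highest in these 3 lists, as in the mitosis genes. Among the Mir137-/- arrays, replicate 3 was the highest in the progenitor list, as in the mitosis genes. It was the lowest in the B cell list and lay between the others in the neutrophil list, unlike in the mitosis genes. The median deviation of erythroid precursor genes was -0.13, -0.05 and -0.20 in Mir137-/-, with replicate 3 the lowest, against 0.04, -0.05 and 0.11 in Mir137+/+. The part of these cells in the values of Ccne2 or the mitosis genes was not tested.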

How the data were processed

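The authors hybridised liver RNA to Affymetrix GeneChip Mouse Genome arrays and deposited log2 probe set values. Their methods name RMA with a baseline-to-mean step and the labels name GCRMA without a version; array medians were 4.88 to 4.91. No detection calls were used, so low values have no stated floor, and 3 arrays per genotype limit the precision. Groups came from the genotype labels. Of 45037 probe sets left after 64 controls, 34945 had 1 gene symbol, 932 several and 9160 none, and 34741 matched the GRCm38 gene table. The probe set with the highest mean stood for each of 18193 genes. Differences were tested with limma 3.58.1 in R 4.3.3 (lmFit, eBayes, no covariate) with Benjamini-Hochberg adjustment over all genes; the fit was tested on simulated data. The call thresholds (adjusted p below 0.05, over 1.5-fold) follow the methods.

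Per-array values were given for called members, the 4 members with the smallest p in each phase, and Mki67, Top2a, Cdk1, Ccnd1, Cdkn1a, Mcm2 and Pcna, and those of Rrm2 were added after its values were seen. In each further list of cycle genes, called genes were named (up to 6). In cell type lists, genes of B cell, neutrophil and erythroid precursors and of blood progenitors were named by the rule of highest mean. Alb, Eif2s3y, Hemgn, Myb and Ikzf1 were named after their values were seen. Members and lists were chosen with earlier results of these data known. Alternatives were the methods' t-test, no adjustment, no fold threshold, trend and robust eBayes, quantile normalization, median centring, leaving out the 40% dimmest or the _s_at and _x_at probe sets, the mean of a gene's probe sets, the replicate number as a block, sex read from Xist as a term, and leaving out each array, the 2 arrays with Xist or the 2 with pancreas transcripts. Both arrays with Xist are Mir137+/+, so that with sex as a term, or without them, Mir137-/- is set against Mir137+/+ replicate 1 alone, which is assumed to vary like the others. Mir137 itself was not analysed here.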

Additional observations from a re-analysis of the deposited data

How the results depend on the processing

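Across 17 alternative settings, 830 comparisons of a member's difference with its main value were made: 745 kept direction and side of the threshold, 74 changed sign, 6 lost a call and 5 gained one. The sign changes concerned 26 members, all uncalled and within 0.34 of 0 as reported. With 3 arrays per genotype, the direction of differences this small is not settled.

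The number of members called lower was 0 by the methods' t-test, with sex as a term and without the 2 arrays with pancreas transcripts. It was 2 at unadjusted p below 0.05 with the 1.5-fold threshold kept (Ccne2 and Rrm2). At an adjusted p below 0.05 with no fold threshold, 2 were lower (Ccne2 and Mcm10) and 3 were higher. Leaving out 1 array gave 0 to 3 called lower and 0 to 1 called higher. Samples of the same replicate number correlated at 0.102, 0.235 and 0.025 in their deviations, and those of unlike number at -0.161 to 0.0616. The labels name no pairs, so the main fit took none. Whether arrays of the same number shared a factor was not tested. With a replicate block, 2 members were called lower (Ccne2 and Rrm2, the adjusted p of Rrm2 being 0.00958, against 0.140 in the main fit). Among all genes, 411 and 588 were then called higher and lower, against 425 and 607. By the methods' t-test after adjustment these were 182 and 284, with sex as a term 184 and 259, without the 2 arrays with Xist 54 and 73, and without the 2 arrays with pancreas transcripts 228 and 390.

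The median of the G1 control genes was 0.25, and that of the S phase genes 0.18, both with sex as a term and without the 2 arrays with Xist; with 1 array left out the G1 control median ran from -0.062 to 0.15, the S phase median from -0.07 to 0.05, the mitosis median from -0.31 to 0.00, and the S phase median minus the mitosis median from -0.035 to 0.24.

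Sign changes were as follows. Without _s_at and _x_at probe sets they were Mcm2 0.22, Mcm3 0.23, Mcm4 0.03, Chek1 -0.22 and Prc1 -0.11, and the B cell gene Igll1, whose brightest probe set is left out there, stood at 0.03. Averaging a gene's probe sets gave Mcm2 0.075, Mcm3 0.098, Rrm1 -0.052, Tyms 0.063, Chek1 -0.077, Cdc20 -0.0011 and Prc1 -0.032. Both with sex as a term and without the 2 arrays with Xist they were Mcm2 0.26, Mcm3 0.15, Tyms 0.11, Gmnn 0.087, Mki67 0.12, Ccna2 0.15, Aurkb 0.28, Bub1 0.087, Bub1b 0.027, Ttk 0.05 and Foxm1 -0.027. Without the 2 arrays with pancreas transcripts they were Mcm2 0.14, Mcm3 0.005, Ccna2 0.025, Ccnb2 0.02, Aurkb 0.085, Bub1 0.02 and Cenpa 0.005. Median centring gave Rrm1 -0.0033 and quantile normalization Aurkb 0.0044. With 1 array left out, the ranges that crossed 0 were Ccne1 -0.062 to 0.18, Mcm2 -0.23 to 0.05, Mcm3 -0.17 to 0.015, Mcm5 -0.053 to 0.14, Pcna -0.013 to 0.17, Rrm1 -0.11 to 0.17, Tk1 -0.15 to 0.012, Gmnn -0.16 to 0.022, Mki67 -0.35 to 0.057, Cdk1 -0.037 to 0.30, Ccna2 -0.34 to 0.0033, Ccnb2 -0.28 to 0.062, Aurka -0.18 to 0.17, Aurkb -0.31 to 0.18, Cdc20 -0.23 to 0.20, Ube2c -0.10 to 0.21, Cenpa -0.31 to 0.052, Kif20a -0.16 to 0.28 and Prc1 -0.16 to 0.17. The cause of these changes was not tested.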
